A study of Mus musculus with 12 samples.

Results

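MLE12 is a mouse distal lung epithelial line, made from a lung tumour of a transgenic mouse in which a promoter of the human surfactant protein C gene drives the SV40 large T antigen. What these cells express when no lung gene is targeted was read from the 6 arrays of cells given a scrambled shRNA, of the 12 arrays in the series. The other 6 arrays come from cells in which shRNA was directed at NANCI or at LL34, both long noncoding RNAs, and were not used. The scrambled arrays were chosen by their titles and form 2 sets of 3: one was the control of the NANCI shRNA (NANCI set), the other the control of the LL34 shRNA (LL34 set). The labels of both sets are otherwise the same. The cells grew in Ham's F12 medium with 2% serum, 0.005 mg/ml insulin, 0.01 mg/ml transferrin, 30 nM selenite, 10 nM hydrocortisone and 10 nM estradiol, and were infected at 60% confluency for 12 h. The virus was a pLKO.1 lentivirus packaged in the human embryonic kidney line HEK-293T. Cells were collected after 65 h of subculture, and 100 ng of total RNA per array was primed with poly(T), amplified and tagged with biotin. All 6 cultures carry large T and a lentivirus expressing a hairpin RNA, so uninfected MLE12 cells are not described here. The labels call the arrays biological replicates without saying that they came from separate infections, and p-values measure only the spread between these arrays.

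Of 41345 probe sets, 23521 carried exactly 1 gene symbol, and these covered 22180 genes. A gene with several probe sets was represented by the brightest. Each gene was given its percentile within each array, its place by log2 signal among the named genes. A gene at 75 or more on all 6 arrays was called high, one below 25 on all 6 low, one between these edges on all 6 mid, and the rest split. By this rule 4931 genes (22.2%) were high, 9569 (43.1%) mid, 4685 (21.1%) low and 2995 split. A percentile of 75 stood for log2 signals of 9.25 to 9.46 and one of 25 for 5.51 to 6.01, depending on the array. Probe sets differ in how well they bind their target, so a percentile describes a signal and not a number of RNA copies. Among 22 measured genes of the cytosolic ribosome and translation, for instance, 17 were high, led by Rps6. The other 5 were mid, from Rplp2 at 49.8 ± 4.32 (SD, n = 6) to Rpl37a at 60.6 ± 1.81. An SD over the 6 arrays holds the gap between the 2 sets as well as the spread within each.

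A reference for the low end came from 1425 olfactory, vomeronasal and taste receptor genes, whose use by these cells was not tested. Their median percentile was 6.74 to 7.09 on the 6 arrays. Of these genes 1174 (82.4%) were low, 124 mid, 2 high and 125 split. Their 95th percentile lay between 39.1 and 41.4. A gene above that value of its own array on all 6 arrays is called above the reference here, as 12329 of the 22180 genes were (55.6%). The 90th percentile of the receptor genes was 26.9 to 29.7, so a gene between it and the 95th ranked above most of them without being above the reference.

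The distal lung epithelium has flat alveolar type 1 cells, across which gas diffuses, and cuboidal alveolar type 2 cells, which make surfactant and can give rise to type 1 cells. NKX2-1, a homeodomain transcription factor, is needed for the lung epithelium to form and binds the promoters of surfactant genes. Surfactant proteins B and C help lipid to spread at the air surface, A and D act in innate defence, and ABCA3 moves lipid into the lamellar bodies from which surfactant is secreted. Large T binds the retinoblastoma and p53 proteins, which normally hold back the cell cycle.

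The genes chosen to check the label gave a mixed picture. Nkx2-1 and Sftpc were high on all 6 arrays, Sftpb lay at the edge of the high band, and Epcam, an adhesion molecule of nearly all epithelia, was not above the reference. Log2 signals of Nkx2-1 in replicates 1, 2 and 3 were 11.18, 11.12 and 11.10 in the NANCI set and 10.73, 10.75 and 10.49 in the LL34 set. Its percentiles were 93.6, 93.4 and 92.9 in the NANCI set and 90.1, 90.3 and 88.9 in the LL34 set. The NANCI set was the higher one and the sets did not overlap. Sets did not overlap in percentile for 55.3% of all genes, a share to set beside each such statement below.

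Sftpc, the surfactant protein C gene, ranked 79.5, 75.3 and 76.0 in the NANCI set and 89.7, 91.2 and 85.0 in the LL34 set, so the LL34 set was higher on every array. Sftpb, the surfactant protein B gene, had percentiles of 79.8, 79.1 and 77.2 in the NANCI set and 71.5, 73.0 and 69.8 in the LL34 set, with the NANCI set higher. Epcam gave log2 signals of 6.37, 6.39 and 6.36 in the NANCI set and 6.39, 6.42 and 6.12 in the LL34 set. Its percentiles, 33.4, 31.8 and 33.4 in the NANCI set and 41.7, 41.6 and 33.1 in the LL34 set, were similar on 4 arrays and higher on LL34 set replicates 1 and 2. Of the 4 markers, Epcam went against the epithelial label on this probe set. Cdh1, the E-cadherin gene, was high at 90.9 ± 2.32 on its brighter probe set, but its other one was at 22.3.

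Most transcription factors of the lung endoderm were above the reference, 24 of 32 (75% against 55.6% of all genes). Of these 32, 9 were high, 14 mid, 2 low and 7 split, with a median percentile of 66.4. The highest was Nfib, a nuclear factor I gene needed for lung maturation (99.5 ± 0.154, SD, n = 6), followed by Gata6, a zinc finger factor of the endoderm (96.8 ± 0.924). Nfia, a relative of Nfib, was at 89.2 ± 0.672 and varied little from array to array.

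The forkhead factors Foxa1 and Foxa2, which open chromatin in endoderm, were high at 86.5 ± 2.44 and 78.7 ± 2.08. Sox9, a factor of the branching tip where the embryonic lung grows, was mid at 69.9 ± 1.86. Id2, an inhibitor of basic helix-loop-helix factors also found at the tip, was split, with percentiles of 60.5 to 61.9 in the NANCI set and 75.1 to 78.5 in the LL34 set, so the LL34 set was higher. The lowest was Sox2, which marks the future airway (16.7 ± 2.48), with a signal like that of the receptor genes.

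The RNA that gave 1 of the sets its name was among the brightest noncoding genes. RefSeq gives Sfta3-ps, a long noncoding RNA gene beside Nkx2-1, the synonym Nanci. Its log2 signals were 12.05, 11.83 and 11.81 in the NANCI set and 11.99, 12.09 and 11.95 in the LL34 set. Its percentiles were 98.2, 97.5 and 97.3 in the NANCI set and 98.3, 98.7 and 98.3 in the LL34 set. The sets overlapped in deposited signal, while in percentile every LL34 array lay just above the NANCI arrays. Of 1926 long noncoding RNA genes, 21 (1.09%) were high and the median percentile was 27.7. Sfta3-ps ranked the 4th among them.

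Other measured noncoding neighbours of lung transcription factors were dimmer. Of 103 different long noncoding RNA genes within 3 genes on either side of the 32 factors, 23 were measured, beside 17 of the factors. The rest have no value here. Sfta3-ps was the 1 high gene among them, 12 were mid, 7 low and 3 split, with a median percentile of 32.4. The next highest was Gata6os, beside Gata6, at 63.7 with arrays from 58.6 to 67.9. Bright factors also had dim neighbours: Nfia had E130114P18Rik, at 17.8, next to it.

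**Figure D1:**
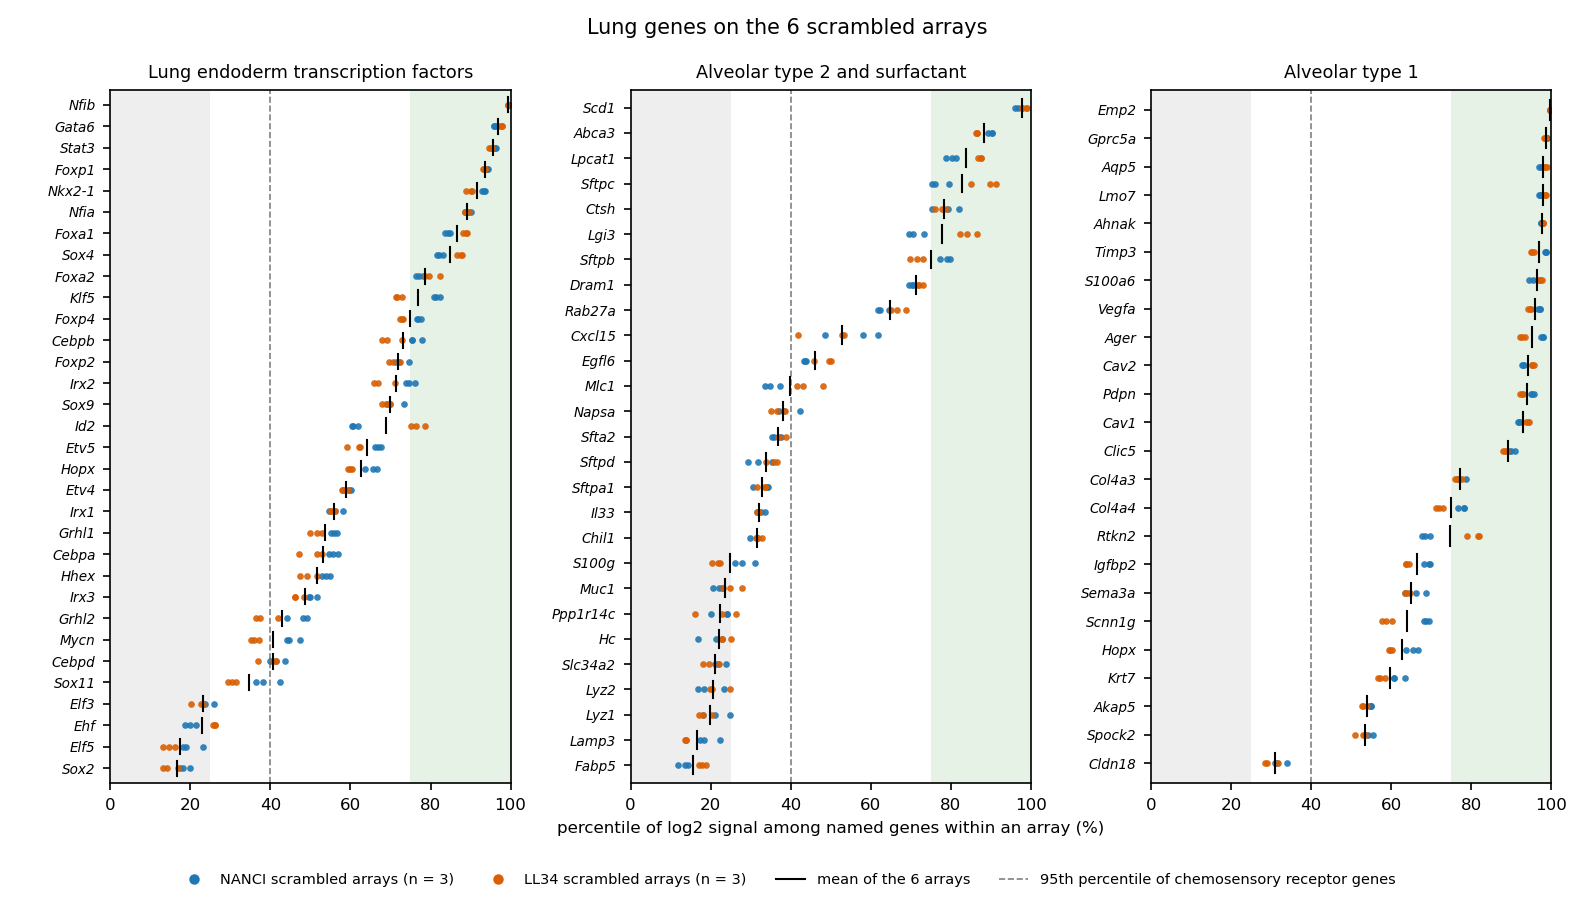
Percentile of the log2 signal among named genes (x axis, %) for each measured gene of 3 lists, with 1 point for each of the 6 scrambled arrays, coloured by set, and a black bar at the mean. Green marks percentiles of 75 and above, grey those below 25, and the dashed line the 95th percentile of chemosensory receptor genes. Of the alveolar type 1 genes 14 of 24 are high, and of the alveolar type 2 genes 5 of 27.

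Only part of the alveolar type 2 programme had a bright signal. Of 27 measured genes, 5 were high (18.5% against 22.2% of all genes and 25.5% of protein-coding ones), 11 mid, 5 low and 6 split. The median percentile was 36.9, and 11 genes were above the reference (40.7% against 55.6% of all genes). Lists of cell types outside the alveolus, described below, ran from 16.7% (airway secretory) to 54.5% (mesenchymal). Beside Sftpc, the high genes were Scd1, Abca3, Lpcat1 and Ctsh. Scd1, which makes unsaturated fatty acids, was at 97.6 ± 1.11 (SD, n = 6), Abca3 at 88.2 ± 1.93 and Lpcat1, which makes the main surfactant phospholipid, at 83.7 ± 4.03. Ctsh, a protease that processes surfactant proteins, was at 78.2 ± 2.46.

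The collectin genes and several other type 2 markers were not above the reference. Sftpa1, the surfactant protein A gene, ranked 30.6, 34.2 and 34.0 in the NANCI set and 31.7, 33.4 and 33.6 in the LL34 set. Sftpd, the surfactant protein D gene, ranked 29.4 to 36.5 and Napsa, a protease of surfactant protein B, 35.0 to 42.4. In percentile the sets overlapped for these genes, and none had all 6 arrays above the reference. In quantile-normalized signal the sets did not overlap for Napsa, which did not pass the limma test between the sets. Slc34a2, the phosphate transporter of type 2 cells, and Lyz2, a lysozyme, were low, at 21.1 ± 1.98 and 20.5 ± 3.01. Fabp5, a fatty acid binding protein with 4 probe sets, was the lowest at 15.6 ± 2.69.

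Promoters of Sftpb and Sftpa1 are shown because the genes ranked so differently while both windows hold CTCAAG, the core of known NKX2-1 sites. Those of Eef1a1, an elongation factor gene near the top of every array (99.9 to 99.98), and of Cyp2a5, an airway cytochrome near the bottom (2.62 to 3.96), are shown as extremes. Each window runs from 250 bases before to 50 bases after the start of the gene, on the gene's own strand, from RefSeq on GRCm38.p6. Capitals mark CTCAAG and the TATA motif TATAAA, which were searched on both strands and do not overlap each other.
Sftpb: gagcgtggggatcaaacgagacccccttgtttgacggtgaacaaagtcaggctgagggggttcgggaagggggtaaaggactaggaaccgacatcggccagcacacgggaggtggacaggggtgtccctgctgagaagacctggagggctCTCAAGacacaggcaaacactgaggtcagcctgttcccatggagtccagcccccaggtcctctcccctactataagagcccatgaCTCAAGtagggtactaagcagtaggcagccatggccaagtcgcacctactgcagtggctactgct
Sftpa1: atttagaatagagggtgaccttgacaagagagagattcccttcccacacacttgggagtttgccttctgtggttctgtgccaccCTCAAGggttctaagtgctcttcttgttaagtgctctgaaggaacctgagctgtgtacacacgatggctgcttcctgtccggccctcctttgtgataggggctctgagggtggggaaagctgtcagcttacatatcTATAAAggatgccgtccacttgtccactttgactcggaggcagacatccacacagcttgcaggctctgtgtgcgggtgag
Eef1a1: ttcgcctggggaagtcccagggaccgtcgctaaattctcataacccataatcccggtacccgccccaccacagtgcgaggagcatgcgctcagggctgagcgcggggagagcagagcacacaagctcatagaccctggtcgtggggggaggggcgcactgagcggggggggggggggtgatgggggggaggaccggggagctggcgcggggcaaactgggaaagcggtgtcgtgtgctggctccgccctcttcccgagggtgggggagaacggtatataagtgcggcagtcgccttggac
Cyp2a5: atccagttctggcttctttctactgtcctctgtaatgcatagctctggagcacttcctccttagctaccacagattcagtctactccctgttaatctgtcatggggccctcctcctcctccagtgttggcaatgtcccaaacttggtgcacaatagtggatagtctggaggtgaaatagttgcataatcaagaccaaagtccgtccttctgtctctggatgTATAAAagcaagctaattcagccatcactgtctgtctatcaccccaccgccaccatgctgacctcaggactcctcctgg
The windows lie at chr6:72304360-72304659 (plus strand), chr14:41131538-41131837 (plus strand), chr9:78481675-78481974 (minus strand) and chr7:26835089-26835388 (plus strand). Counted from the start of the gene, the Sftpb window has CTCAAG at -100 and -15. The Sftpa1 window has CTCAAG at -166 and TATAAA at -30, and the Cyp2a5 window has TATAAA at -29. The Eef1a1 window has neither motif but 22 CG dinucleotides, against 8 in Sftpb, 5 in Sftpa1 and 2 in Cyp2a5. Only exact matches were counted. The Eef1a1 and Sftpb windows hold tataag, which differs from TATAAA in its last base. Of the promoters of protein-coding genes 14.7% held CTCAAG, with 13.0% in the high band and 16.7% in the low band.

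High and low genes differed in their promoter windows as classes. Windows were at hand for 3976 of 4836 high protein-coding genes (82.2%) and 2828 of 3432 low ones (82.4%). The median window of a high gene held 24 CG dinucleotides (quartiles 17 and 31) and that of a low gene 2 (quartiles 1 and 4). TATAAA was in 5.73% of high and 30.1% of low promoters, and in 12.9% of all protein-coding ones. Chemosensory receptors are a large part of the low band, and without them the low promoters had a median of 3 CG dinucleotides and 24.2% held TATAAA. These are descriptions with no test. Mid genes are left out because windows were at hand for only 79.5% of them.

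**Figure D2:**
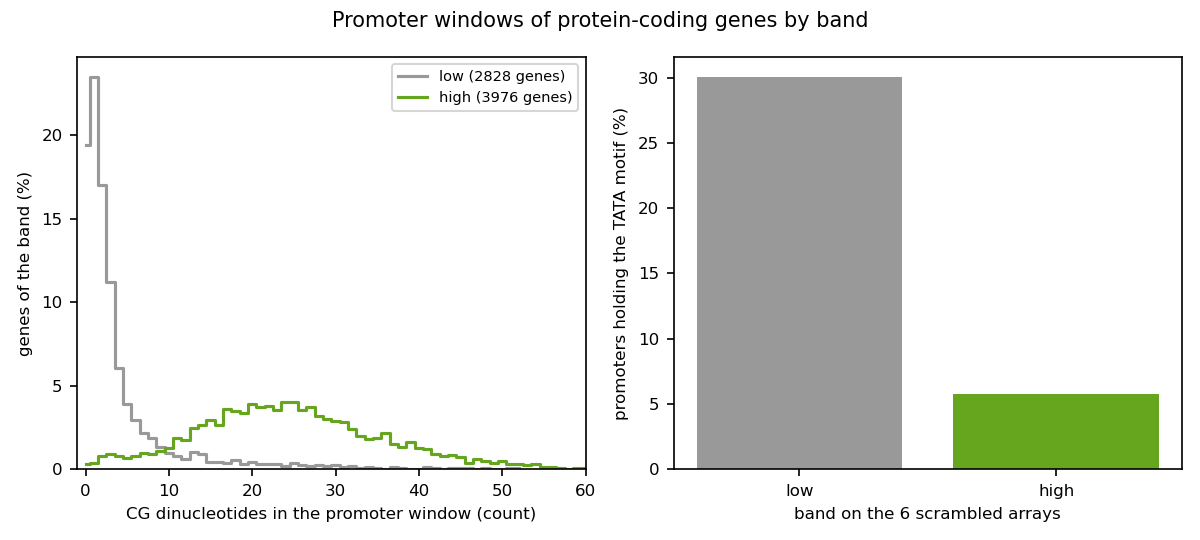
Promoter windows of protein-coding genes that were low (grey, 2828 genes) or high (green, 3976 genes) on all 6 arrays. Left, the share of genes of the band (y axis, %) by the count of CG dinucleotides in the window (x axis), with a median of 2 for low and 24 for high genes; right, the share of promoters holding the TATA motif (y axis, %), 30.1% of low and 5.73% of high genes.

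Alveolar type 1 markers were the brightest of the lung cell types. Of 24 measured genes, 14 were high (58.3% against 22.2% of all genes and 25.5% of protein-coding ones), 8 mid, 2 split and none low. The median percentile was 91.1, and 23 genes were above the reference. Emp2, a membrane protein abundant in type 1 cells, was at 99.8 ± 0.05 (SD, n = 6). Aqp5, a water channel, was at 97.9 ± 0.723.

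Ager, the receptor for advanced glycation end products and a defining type 1 marker, ranked 97.4, 97.9 and 97.9 in the NANCI set and 92.1, 93.3 and 92.6 in the LL34 set. The NANCI set was higher without overlap. Pdpn, or podoplanin, was at 93.9 ± 1.55, and Cav1 and Cav2, which form caveolae, at 93.0 ± 1.2 and 94.1 ± 1.37. Hopx, a homeodomain protein of type 1 cells, was mid (62.6 ± 3.17). So was the sodium channel subunit Scnn1g (63.8 ± 5.5), with means of 68.8 in the NANCI set and 58.9 in the LL34 set. Cldn18, the lung tight junction claudin, was the lowest, at 31.0 ± 1.98. Several genes of the list, such as Vegfa and Timp3, are expressed by many cultured cells.

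Markers of airway secretory cells had the lowest median of the 26 lists. None of 18 genes was high, 9 were mid, 7 low and 2 split, with a median percentile of 29.8 and 3 genes above the reference. Scgb1a1, the club cell secretoglobin, ranked 18.1, 10.4 and 13.8 in the NANCI set and 19.8, 13.7 and 10.4 in the LL34 set. Its arrays were all low and the sets overlapped. Scgb3a2, another secretoglobin, was at 4.75 ± 1.1 and Cyp2a5 the lowest at 3.43 ± 0.519, while Muc5b, a gel-forming mucin, was the highest, at 60.1 ± 1.87.

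Ciliated, basal and neuroendocrine markers had medians of 36.1, 40.1 and 40. None of 19 ciliated genes was high: Foxj1, the master factor of motile cilia, ranked 33.0 to 39.8, Rfx3, a factor that acts in many tissues, was the highest at 65.4 ± 1.1, and Pifo the lowest at 12.4 ± 0.665. Of 17 basal and squamous genes 1 was high, Sprr1a, a protein of the cornified envelope (89.4 ± 7.89). Its mean was 96.5 in the NANCI set and 82.3 in the LL34 set. Trp63, which defines basal cells, was at 35.7 ± 0.702 and Krt6a, a stress keratin, the lowest at 11.4 ± 4.41. None of 14 neuroendocrine genes was high: Uchl1, a ubiquitin hydrolase, led at 77.7 ± 5.07 and was split, and Pcsk1, a prohormone convertase, was the lowest at 18.9 ± 4.61.

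Epithelial junction and keratin genes formed a mixed group, with 12 high, 24 mid, 1 low and 3 split among 40. The median was 58.2, and 28 were above the reference (70% against 55.6%). Ctnnb1, or beta-catenin, which links cadherins to the cytoskeleton, was the highest at 98.9 ± 0.272. F11r, the junctional adhesion molecule A, was at 97.1 ± 1.44, and the keratins Krt19 and Krt8 at 96.1 ± 0.46 and 93.4 ± 2.35. Krt18, the partner of Krt8, was mid on the brighter of 2 probe sets, at 42.8 ± 4.31. Dsp, the desmosomal plaque protein, was high (86.3 ± 2.16), Dsc2, a desmosomal cadherin, was the lowest (20.3 ± 3.36), and the claudin Cldn3 was at 67.4 ± 3.04.

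Some genes usual for mesenchyme were among the brightest of any list. Vim, the intermediate filament vimentin, was at 99.8 ± 0.146, Dcn, the matrix proteoglycan decorin, at 99.7 ± 0.061 and Sparc, a matrix glycoprotein, at 98.4 ± 0.224. Fn1, or fibronectin, was at 94.5 ± 2.24 and Cdh2, or N-cadherin, at 89.3 ± 1.58. These 5 were the high genes among 33; 23 were mid, 3 low and 2 split, and the median was 46.9. Col1a1, a fibrillar collagen, was at 61.5 ± 1.75, Zeb1, a repressor of E-cadherin, at 60.97 ± 1.06, Pdgfra, a receptor that marks lung fibroblasts, at 28.1 ± 1.98 and Lum the lowest at 9.58 ± 0.78. E-cadherin and N-cadherin thus both had high signals in the same cultures on their brighter probe sets. The other probe set of Cdh1 was at 22.3 and that of Cdh2 at 50.9.

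Defining markers of other cell types were mostly near or below the reference. Endothelial genes had a median of 37.4, and 1 of 18 was high, Ptprb, a receptor phosphatase (84.7 ± 4.63). The endothelial adhesion genes Pecam1 and Cdh5 were at 38.6 ± 0.912 and 36.2 ± 6.42, and Emcn the lowest at 12.5 ± 0.676. Leukocyte genes had a median of 36.5 and none of 19 was high: Ptprc, which encodes CD45, was at 17.2 ± 0.942, S100a8 the lowest at 6.90 ± 2.11, and the lysosomal Cd68 the highest at 64.8 ± 1.76.

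NKX2-1 also acts in the thyroid, and of 8 thyroid genes none was high and none low. Their median was 43.4, and 4 were above the reference. Pax8, its partner there, ranked 24.1 to 32.8, and Tg, the thyroglobulin gene, 49.3 to 51.4; Foxe1 was the highest at 53.9 ± 0.717 and Slc26a4 the lowest at 23.2 ± 1.54. Liver, gut, stomach and pancreas genes had a median of 36.3 and none of 20 was high, from Lgr5, a Wnt-responsive receptor, at 55.9 ± 3.79 to Fabp1 at 10.3 ± 1.07. Alb, the albumin gene, was at 31.1 ± 4.83. In the list of neuron, muscle, blood and germ line genes, Map2, a microtubule protein, was the 1 high gene of 17 (89.5 ± 3.3), and Dazl the lowest at 12.0 ± 2.91.

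**Figure D3:**
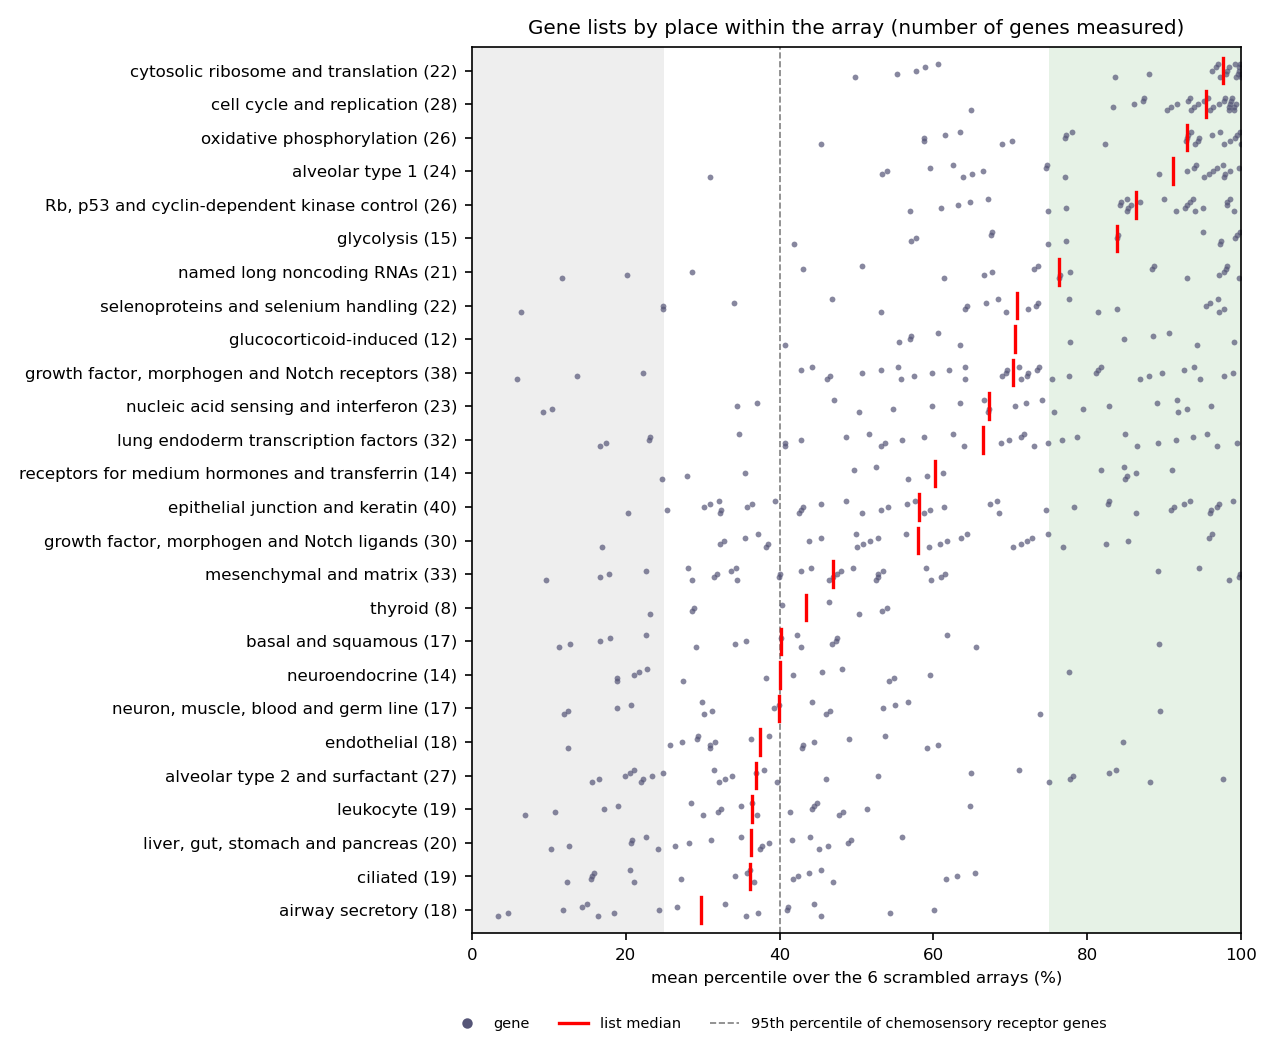
Mean percentile over the 6 scrambled arrays (x axis, %) of every measured gene, 1 point each, in 26 gene lists ordered by their median (red bar), with the number of genes measured in brackets. Shading marks percentiles of 75 and above and those below 25, and the dashed line the 95th percentile of chemosensory receptor genes. Each gene is placed by its brightest probe set. So placed, the ribosome list has the highest median, 97.7, and the airway secretory list the lowest, 29.8.

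Genes of the dividing cell were almost uniformly bright. Of 28 cell cycle and replication genes 27 were high and 1 was mid, with a median of 95.5. Pcna, the replication clamp, was at 99.4 ± 0.177, Mki67, the proliferation antigen Ki-67, at 99.05 ± 0.316 and Ccna2, or cyclin A2, at 98.9 ± 0.187. Ccne1, or cyclin E1, was the mid gene, at 64.9 ± 1.68.

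The genes of the proteins that large T acts upon, and of their partners, were bright as well. Among 26 genes of Rb, p53 and cyclin-dependent kinase control, 20 were high, 5 mid and 1 split, and the median was 86.3. Rb1, the retinoblastoma gene, was at 93.0 ± 0.707 on its brighter probe set and at 18.4 on the other. Its relatives Rbl1 and Rbl2 were at 95.03 ± 1.13 and 86.9 ± 3.68. Cdk4, a kinase that inactivates these proteins, was the highest at 99.1 ± 0.336. Inhibitors of cyclin-dependent kinases differed in place. Cdkn2a, which encodes p16 and p19ARF, was at 89.9 ± 1.21, Cdkn1a, or p21, at 98.1 ± 0.791 and Cdkn2b, or p15, at 84.2 ± 4.21. Mdm2, a p53 target that marks p53 for destruction, was at 94.0 ± 2.68, and the inhibitor Cdkn1c, or p57, was the lowest of the list and mid, at 57.0 ± 2.55.

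Receptors for the hormones in the medium differed in place. The glucocorticoid receptor gene Nr3c1 was high (84.9 ± 2.02), as were Igf1r (91.0 ± 1.06) and Insr (86.3 ± 1.3), through which insulin acts. The estrogen receptor genes Esr1 and Esr2 were mid, at 59.2 ± 0.55 and 52.6 ± 2.56. Tfrc, the transferrin receptor that brings iron into the cell, was split, with 70.9 to 75.3 in the NANCI set and 90.2 to 90.6 in the LL34 set, which did not overlap. Tfr2, a form used by the liver, was the lowest of 14 genes, at 24.7 ± 0.795.

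Of 12 genes known to be induced by glucocorticoids, 6 were high and 6 mid, with a median of 70.7. The metallothionein genes Mt2 and Mt1 were at 99.05 ± 0.175 and 94.2 ± 0.679, Dusp1, a kinase phosphatase, at 90.7 ± 3.21, and Cebpd, a C/EBP factor, the lowest at 40.7 ± 2.26. Fkbp5, a chaperone of the receptor (63.5 ± 1.4), Sgk1, a kinase (60.7 ± 7.33), and Tsc22d3, which encodes GILZ (55.6 ± 4.54), were mid. All 6 cultures had hydrocortisone, so its effect on these genes was not tested.

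Of 22 selenoprotein and selenium handling genes, which bear on the use of selenite, 8 were high, 9 mid, 1 low and 4 split. Selenof was the highest (97.7 ± 0.372), followed by the glutathione peroxidase Gpx1 (97.1 ± 0.685) and the thioredoxin reductase Txnrd1 (97.0 ± 2). Gpx2, a glutathione peroxidase of the gut, was the lowest at 6.39 ± 2.75.

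Receptors of growth factors and morphogens had a higher median percentile than the list of ligands. Of 38 receptors, 12 were high, 19 mid, 3 low and 4 split, with a median of 70.4. Of 30 ligands, 4 were high, 23 mid, 1 low and 2 split, with a median of 58. Bmpr2, a BMP receptor, was at 98.97 ± 0.082, Lrp6, a Wnt coreceptor, at 97.8 ± 0.226, Smo, the Hedgehog signal transducer, at 94.7 ± 0.823 and Bmpr1b the lowest at 5.91 ± 1.32. Fgfr2, through which FGF10 of the mesenchyme acts on the lung bud, was mid and uneven, at 44.2, 37.2 and 45.4 in the NANCI set and 60.9, 60.5 and 56.3 in the LL34 set. The LL34 set was higher without overlap.

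Among the ligands Tgfb2 (96.2 ± 0.371) and Vegfa, the vascular growth factor (95.8 ± 1.35), led. Bmp4, a factor of the branching tip, was at 70.4 ± 0.909, Shh, the epithelial Hedgehog ligand, at 45.4 ± 4.94 and Wnt7b, a Wnt that the lung epithelium sends to the mesenchyme, at 49.99 ± 1.01. Hgf, a ligand made by mesenchyme, was the lowest (17.0 ± 1.26). The order of the lists compares different probes and was not tested.

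A lentivirus carries an RNA genome, so genes of nucleic acid sensing were listed too. Of 23, 7 were high, 11 mid, 2 low and 3 split, with a median of 67.2. Samhd1, which depletes nucleotides and restricts retroviruses, was at 96.2 ± 1.35, the RNA sensor gene Ddx58 (RIG-I) at 91.9 ± 0.701 and the endosomal sensor Tlr3 at 89.1 ± 1.86. Of the interferon-stimulated genes, Isg15 was at 50.3 ± 2.13, Ifit1 at 66.6 ± 4.23 and Mx1 at 10.46 ± 2.21, and Ifnb1, the interferon beta gene, was the lowest at 9.25 ± 2.91. Without uninfected cells, a response to the virus was not tested.

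The brightest coding genes were led by those of the mitochondrial genome and of translation. By mean percentile the first 10 were ND4, COX1, Rps6, CYTB, B2m, Eef1a1, Cox6a1, H4c12, ND1 and ND5. ND4, COX1, CYTB, ND1 and ND5 are subunits of the respiratory chain encoded in the mitochondrion, B2m is the light chain of class I molecules and H4c12 a histone. Of 10 measured mitochondrial protein genes 9 were high, and ND6, the one encoded on the other strand, was split, at 59.2 to 63.2 in the NANCI set and 72.0 to 77.7 in the LL34 set. Of 26 oxidative phosphorylation genes 16 were high (median 93), from Cox6a1 at 99.96 to Cox7c at 45.3 ± 3.01. Of 15 glycolysis genes 8 were high (median 83.9), from Gapdh at 99.9 ± 0.036 to Ldhb at 41.9 ± 1.38.

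Noncoding genes were led by small RNAs and nuclear long RNAs. Leaving out genes known only by a clone or predicted-gene number, the 10 highest were Rn7sk, Mir5099, Malat1, Mir449b, Xist, Mir692-1, Snora33, Scarna17, Terc and Sfta3-ps. The labelling is described as primed by poly(T), yet some of these RNAs have no poly(A) tail, and 12 of 80 small nucleolar RNA genes and 12 of 478 miRNA genes were high. The median range over the 6 arrays was 10.9 percentile points for small nucleolar RNA genes and 4.81 for protein-coding genes. Rpph1, the RNA of ribonuclease P, ranked 99.8, 99.7 and 99.8 in the NANCI set and 91.6, 96.8 and 98.95 in the LL34 set, with the LL34 set lower and more scattered. In a list of 21 named long or structural noncoding RNAs 8 were high, including Tug1 (97.2 ± 0.527) and Neat1, the paraspeckle RNA (88.7 ± 2.96), and Rian was the lowest (11.7 ± 0.615).

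The sets agreed closely on which genes are high and low. On all 6 arrays 19185 of 22180 genes (86.5%) lay in 1 band, and no gene was high on all arrays of one set and low on all arrays of the other. From high in the NANCI set to mid in the LL34 set went 223 genes, and from mid to high 232. Between low and mid the numbers were 209 and 207. The sets' mean percentiles differed by a median of 2.35 points and by 6.93 at the 90th percentile of genes, and 35 genes differed by more than 20. Across genes, which are not independent replicates, Spearman's correlation between the set means was 0.989. The arrays of the sets still did not overlap in percentile for 55.3% of genes.

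High genes had the smallest median range over the 6 arrays, 2.94 points, against 5.89 for mid and 3.95 for low genes. Band calls rest on their edges. Of the transcription factors and receptors listed, those just inside the high band were the Wnt receptors Fzd4 and Lrp5, Foxa2, the retinoic acid receptor Rarb and Erbb3, with lowest arrays at 75.5, 75.7, 76.4, 78.7 and 80.8. Just outside it were Rara, Foxp4, Fzd7, Rxrb and Klf5, with lowest arrays from 72.9 down to 71.3. Just inside the low band were the epithelial factor Elf5, Erbb4, Sox2, Fzd10 and Bmpr1b, with highest arrays at 23.3, 23.1, 19.9, 17.1 and 7.68. Just outside it were Tfr2, Elf3, Ehf, Hsd11b1 and Gper1, with highest arrays from 25.7 to 39.7.

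**Figure D4:**
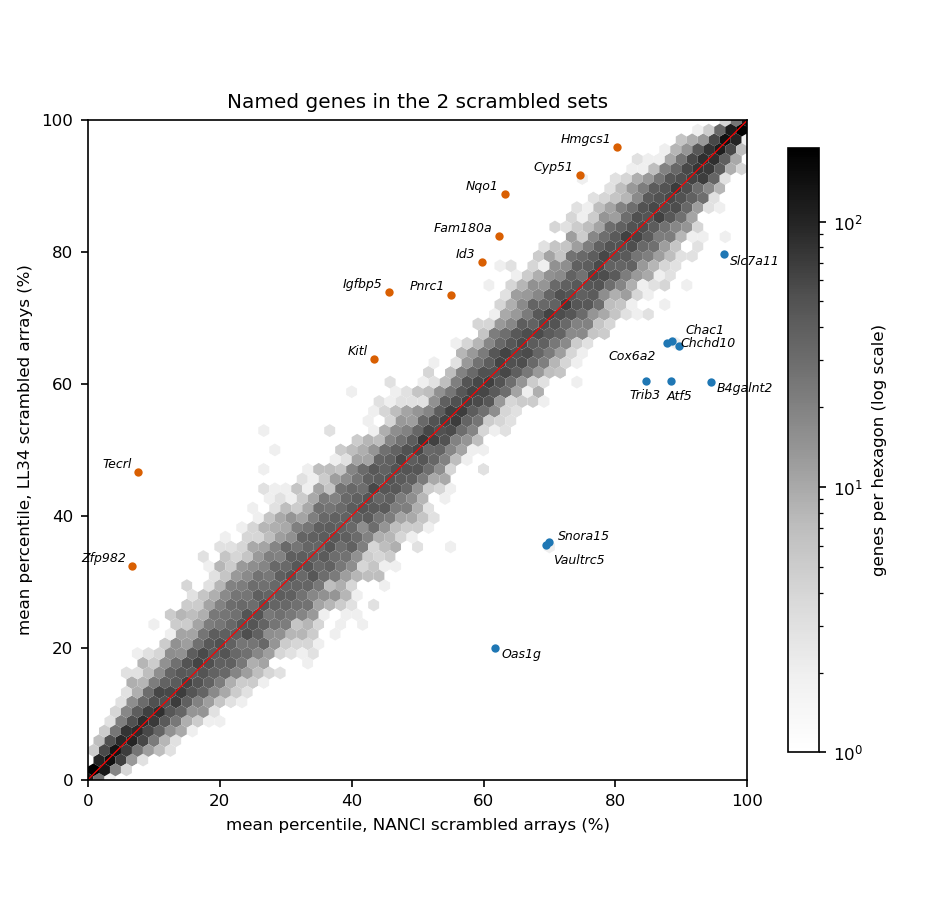
Mean percentile of each of 22180 named genes in the NANCI set (x axis, %, n = 3 arrays) and in the LL34 set (y axis, %, n = 3), as hexagons shaded by the number of genes on a log scale, with the line of equal rank in red. Coloured points are the 10 named genes with the largest log2 difference in each direction, orange where the LL34 set is higher; most genes lie along the line, with Oas1g and Tecrl far from it.

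Agreement in rank did not mean equal values. The array medians were 6.84 to 6.88 in the NANCI set and 6.54 to 6.58 in the LL34 set. In the LL34 set, 696 to 1681 probe sets had exactly equal values on a pair of arrays, against 9 to 21 in the NANCI set and 0 between sets. LL34 set replicate 3 correlated least with its own set (Pearson's r 0.986 and 0.990 over probe sets), and its closest array in the other set was NANCI set replicate 2 (0.982). The sets were therefore compared after quantile normalization over the 6 arrays, which keeps the order within each array.

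On that scale, 12512 of 41345 probe sets differed between the sets (30.3%, limma adjusted p under 0.05), 5814 higher and 6698 lower in the LL34 set, and 722 differed by at least 1 on the log2 scale. Among named genes, 7591 (34.2%) passed, 3488 higher (15.7%) and 4103 lower (18.5%). By band, 46.1% of high, 28.9% of mid, 20.4% of low and 53.2% of split genes passed. Lists of bright genes and lists of dim genes thus differ in the share to set them against. The arrays of the sets did not overlap for 53.5% of genes. Higher calls were 46.5% of all calls, but 14.5% with the deposited values, where the median probe set differed by -0.22, and 65.5% with arrays centred on their medians, where it differed by 0.08. The set, the cultures, the array run and the normalization cannot be told apart. Without LL34 set replicates 1 or 2, or NANCI set replicate 3, the count was 8149, 6571 or 7558.

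The 10 named genes with the largest differences upward in the LL34 set were chosen for their size, and no pathway was tested among them. Nqo1, a quinone reductase, had deposited log2 signals of 8.43, 8.34 and 8.54 in the NANCI set and 10.47, 10.48 and 10.76 in the LL34 set, a difference after quantile normalization of 2.24 (SE 0.116, limma adjusted p = 0.000495). Hmgcs1, which makes a precursor of cholesterol, was higher by 1.71 (SE 0.115, adjusted p = 0.000843) and Cyp51, a later enzyme of cholesterol synthesis, by 1.58 (SE 0.156, adjusted p = 0.00179). Igfbp5, an IGF binding protein, was higher by 2.42, Kitl, the ligand of the KIT receptor, by 1.64, and Id3, an inhibitor of basic helix-loop-helix factors, by 1.64. Tecrl had the largest upward difference, 2.44, with percentiles of 8.54, 6.02 and 8.28 in the NANCI set and 53.1, 54.6 and 32.1 in the LL34 set, where replicate 3 of the LL34 set lay well below the others. Zfp982 (1.64) had the same low replicate, and Fam180a and Pnrc1 complete the 10, at 1.73 and 1.68.

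The 10 largest downward differences were chosen in the same way. Trib3, a pseudokinase, differed by -2.12 (SE 0.0787, limma adjusted p = 0.000409), Chac1, a glutathione-degrading enzyme, by -2.10 (SE 0.0587, adjusted p = 0.000409) and Atf5 by -2.50 (SE 0.203, adjusted p = 0.00116). Slc7a11, the cystine importer, differed by -1.82, and by -0.86 on its other probe set. B4galnt2, a glycosyltransferase, had deposited log2 signals of 11.03, 11.42 and 11.49 in the NANCI set and 8.20, 7.96 and 7.78 in the LL34 set and the largest normalized difference of these 20 genes, -3.21 (SE 0.144, adjusted p = 0.000409). Oas1g, an interferon-induced gene, differed by -2.78, and the small RNA genes Snora15 and Vaultrc5 by -2.63 and -2.63. Chchd10 and Cox6a2, nuclear genes of mitochondrial proteins, differed by -1.92 and -1.87.

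**Figure D5:**
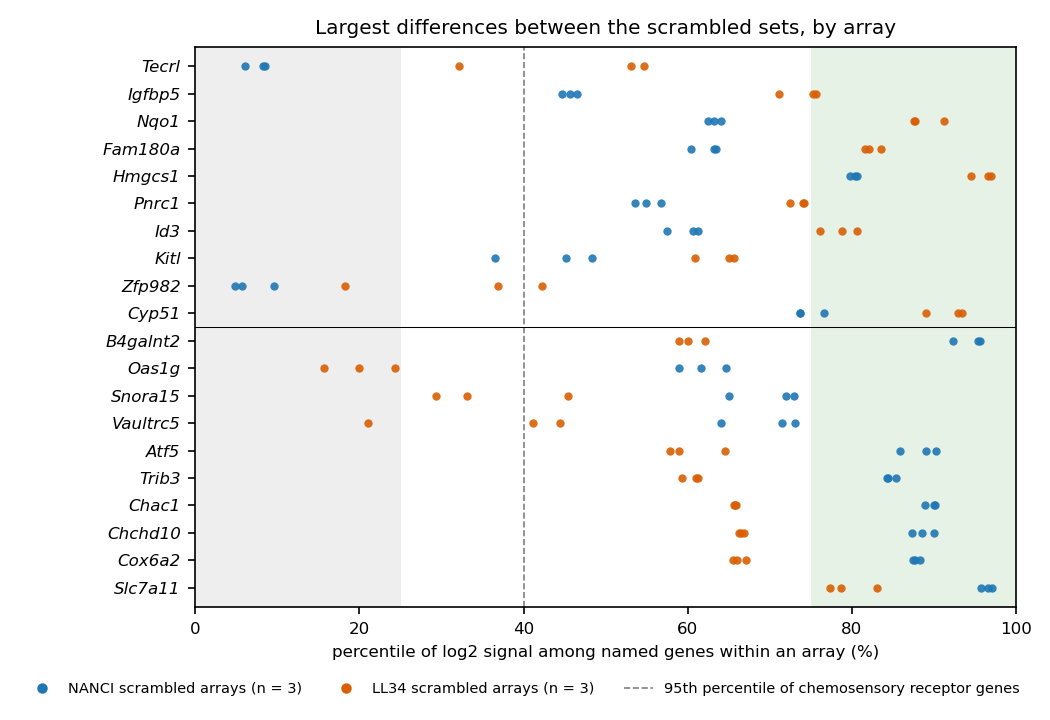
Percentile of the log2 signal among named genes within an array (x axis, %) for the 10 named genes with the largest differences upward (above the line) and downward (below it) in the LL34 set, with 1 point per array, blue for the NANCI set and orange for the LL34 set (n = 3 each). The sets do not overlap, which is part of how these genes were chosen, and Tecrl, Zfp982 and Vaultrc5 have 1 LL34 array apart from the other two.

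Among lung transcription factors, 5 of 32 were higher and 15 lower in the LL34 set (62.5% called against 34.2% of named genes), 4 and 23 with the deposited values and 6 and 10 with centred arrays. The median difference was -0.27, against -0.02 over all named genes. Id2 was higher by 1.37 (SE 0.0889, limma adjusted p = 0.000833) and Foxa1 by 0.41 (SE 0.0612, adjusted p = 0.00553). Klf5, a Krüppel-like factor of the maturing lung, differed by -0.80 (SE 0.066, adjusted p = 0.0012). Nkx2-1 differed by -0.41 (SE 0.0699, adjusted p = 0.00792), a call lost with centred arrays (adjusted p = 0.187). Gata6 was higher by 0.34 (adjusted p = 0.00975), a call lost on percentile ranks (adjusted p = 0.0803).

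Of 27 type 2 genes, 5 were higher and 4 lower (33.3% called, near the 34.2% of named genes), with a median of 0.04; the counts were 3 and 12 with the deposited values and 8 and 2 with centred arrays. Sftpc was higher by 1.04 (SE 0.179, limma adjusted p = 0.00837) and Lpcat1 by 0.64 (SE 0.0721, adjusted p = 0.00259). Sftpb differed by -0.60 (SE 0.0958, adjusted p = 0.00658) and Abca3 by -0.33 (adjusted p = 0.00865), both calls lost with centred arrays (adjusted p = 0.0539 and 0.408). Epcam differed by 0.26 (SE 0.0988, adjusted p = 0.0915), by 0.37 without LL34 set replicate 3 (adjusted p = 0.00775), and by -0.063 with the deposited values (adjusted p = 0.604). Sfta3-ps differed by 0.20 (SE 0.0815, adjusted p = 0.118), and passed with centred arrays (0.41, adjusted p = 0.0166).

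Of 24 type 1 genes 62.5% were called, against 34.2% of named genes and 46.1% of high genes. Rtkn2, at 1.04 on the brightest of its probe sets (SE 0.092, limma adjusted p = 0.00138), was among 6 higher genes. Among 9 lower ones were Scnn1g, Ager and Timp3, an inhibitor of metalloproteases, at -0.94, -0.85 and -0.72. The counts were 8 and 7 with centred arrays, but 5 and 13 with the deposited values and 3 and 10 on percentile ranks. Of 40 junction genes, 10 were higher, among them the plakophilin Pkp2 and Krt8 (0.59 and 0.58), and 8 lower (45% called). Among the lower were F11r (-0.58) and Cdh1 (-0.45, limma adjusted p = 0.0117, and 0.153 with centred arrays). Counts for the list were 4 and 17 with the deposited values and 14 and 6 with centred arrays. Vim was higher by 0.48, a call lost on percentile ranks (adjusted p = 0.483), and Fn1 differed by -0.58. Sprr1a differed by -1.61 (SE 0.107, adjusted p = 0.000833).

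The labels give both sets the same medium. Tfrc was higher by 1.53 (SE 0.0949, limma adjusted p = 0.000758). Of 12 glucocorticoid-induced genes 33.3% were called, near the 34.2% of named genes. Among them 2 were higher, Sgk1 by 1.23 and Dusp1 by 0.67, and 2 lower, with Tsc22d3 at -0.79. Those counts were 2 and 6 with the deposited values and 5 and 2 with centred arrays. Of 22 selenoprotein genes 45.5% were called: 8 were higher, among them Lrp8, a selenoprotein P receptor (1.07), and Txnrd1 (0.81), and 2 lower. Those counts turned to 4 and 8 with the deposited values and were 12 and 1 with centred arrays. Of 15 glycolysis genes 9 were higher and 0 lower, against 15.7% and 18.5% of named genes, and 9 and 1 with the deposited values, 13 and 0 with centred arrays. Slc2a1, the glucose transporter GLUT1, was higher by 1.00 (SE 0.0546, adjusted p = 0.000564), Ldha, lactate dehydrogenase A, by 0.72 and Tpi1, triosephosphate isomerase, by 0.61.

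In the cell cycle list 57.1% of 28 genes were called, against 34.2% of named genes and 46.1% of high genes. The mitotic kinases Aurkb (0.75) and Plk1 (0.60) were among 10 higher genes. The replication factors Gins2 (-0.98) and Cdt1 (-0.80) were among 6 lower ones. Those counts were 6 and 8 with the deposited values, 2 and 6 on percentile ranks and 16 and 3 with centred arrays. Mdm2 was higher by 0.68 and Rbl2 by 0.64, and Cdkn2b differed by -0.67. Of 26 oxidative phosphorylation genes 42.3% were called. Among them 6 were higher, with Uqcrh of complex III at 1.17, and 5 lower, with Cox4i1 of complex IV at -0.70. Those counts were 3 and 7 on the deposited values and 14 and 2 with centred arrays. Of 38 receptors 39.5% were called, 9 higher and 6 lower. Fgfr2 was higher by 1.27 (SE 0.144, limma adjusted p = 0.0026) and Bmpr1a by 0.73, and the Wnt receptor Fzd4 differed by -0.75. Receptor counts were 7 and 14 on the deposited values and 13 and 4 with centred arrays. Of 30 ligands 33.3% were called, near the share of all named genes: 4 were higher and 6 lower, with Shh at -0.54. Ligand counts were 6 and 3 with centred arrays, but 1 and 13 with the deposited values.

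Of 23 sensing and interferon genes 3 were higher and 9 lower in the LL34 set (52.2% called against 34.2% of named genes). The counts were 5 and 5 with centred arrays, but 1 and 11 with the deposited values and 2 and 9 on percentile ranks. Mx2, Bst2 and Irf7, all induced by interferon, differed by -0.95, -0.84 and -0.77 (limma adjusted p = 0.0029, 0.00393 and 0.00304). Among 21 named noncoding RNAs 57.1% were called. Calls were higher for 3, such as Neat1 (0.51, limma adjusted p = 0.0112), and lower for 9, such as Snhg5 (-0.68) and Meg3 (-0.62). These counts became 6 and 5 with centred arrays, 3 and 12 with the deposited values and 3 and 7 on percentile ranks. Of 18 endothelial genes 2 were higher and 6 lower (44.4% called). For 19 leukocyte genes the counts were 1 and 2 (15.8%), and for 19 ciliated genes 0 and 4 (21.1%), against 34.2% of named genes. Both lists hold mostly mid and low genes, of which 28.9% and 20.4% were called.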

How the data were processed

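The 6 scrambled-shRNA arrays were read from the table of log2 signals of 41345 probe sets that the authors deposited; oligo, RMA and limma are named, with no version or order, per the submitters' processing notes. Probe sets were named from the platform annotation: 23521 carried 1 symbol, 1814 several and 16010 none, and 21991 of 22180 genes matched RefSeq (GRCm38.p6). Percentiles were 100 × (average rank − 0.5) / number of named genes, computed in Python 3.11.15 (pandas 2.3.3). The sets were compared with limma 3.58.1 in R 4.3.3 (lmFit and eBayes, 4 residual degrees of freedom before moderation) after quantile normalization over the 6 arrays, with Benjamini-Hochberg adjustment over 41345 probe sets and a threshold of 0.05. Every adjusted p in the text is from this fit unless another setting is named, and the fit was tested on simulated data. The number of arrays, 3 in each set, limits the precision.

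The members and lists were chosen with earlier results of these data known. Named are the 4 label check genes, up to 12 members of each list with its highest and lowest, the 10 highest coding genes and the 10 highest noncoding genes without placeholder names, the 10 largest called differences in each direction among named genes whose sets do not overlap, and the 5 listed transcription factors or receptors nearest each band edge on either side. Alternatives were other band edges, other handling of several probe sets, ranks among all probe sets, other scalings, array weights, a trend, a filter on dim probe sets, a replicate block and leaving out each array. Multi-symbol and unnamed probe sets stayed in the fit and were not ranked. LL34 itself was not analysed here.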

Additional observations from a re-analysis of the deposited data

How the results depend on the processing

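With band edges at percentiles of 90 and 10, 1816 genes were high and 1686 low; the other alternatives kept the band counts within 1.5 times. Spearman's correlation between the sets was 0.965 over genes at or above the median percentile. The count of differing probe sets was 19091 with the deposited values and 22137 with array weights, of 41345 tested. When probe sets below the median signal were left out it was 8115, but of only 20673 tested. With 1 array left out it ran from 6571 (without LL34 set replicate 2) to 14514 (without LL34 set replicate 3). It was 8475 without NANCI set replicate 1 and 9017 without NANCI set replicate 2. Deviations of same-numbered arrays had correlations of 0.31, -0.39 and -0.35, and those of differently numbered arrays ran from -0.46 to 0.55. With 3 arrays per set these values cannot show whether samples were paired, and the labels do not say. The main fit treated them as unpaired. With a replicate block the count was 6781. Of 78 genes followed through the settings, Gata6, Neat1 and Irx2 then lost their calls (limma adjusted p = 0.0549, 0.0504 and 0.0537). Irx2, named after its values were seen, differed by -0.60 (limma adjusted p = 0.0202) and also lost its call without NANCI set replicates 2 or 3 or LL34 set replicates 1 or 2 (0.0635 to 0.0648). Among those 78 genes Epcam was the 1 whose sign turned, to -0.063 with the deposited values. The sign was not followed for other genes, and the median of the type 2 list turned from 0.04 to -0.24 with those values. Epcam passed with array weights (0.36, limma adjusted p = 0.0022), as did Sfta3-ps (0.27, limma adjusted p = 0.0133). Ranked among all probe sets, Sftpb was at 81.4 and Epcam at 42.6. The causes were not tested.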

Other observations

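Odf1, a gene of the sperm tail, was 22nd among protein-coding genes, with a percentile of 99.9 on its brighter probe set and 30.5 on its other one. It is named here after its values were seen.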
